A study of Homo sapiens with 4 samples.

Results

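The front end of fibroblast growth factor (FGF) signalling is described here through 10 genes in TPC1, an established line from a human papillary thyroid cancer with a fused CCDC6-RET gene. They are the receptors FGFR1, FGFR2, FGFR3, FGFR4 and FGFRL1, the coreceptor KLB, the adaptors FRS2 and FRS3, and the receptor-associated proteins SHISA2 and FLRT3. They were taken by gene symbol, by a rule that used no measured value. The set was nevertheless chosen with earlier results of these data known. All 10 genes were found among the 20372 genes of the table. RNA was sequenced from cells exposed for 6 h to BLU6864, which blocks the RET receptor kinase, and from cells given the solvent DMSO, with 2 libraries in each group. Both groups were the same fusion-bearing line, grown in serum. The BLU6864 dose is uncertain, since the labels give 100 micromolar and the study describes a nanomolar dose. The labels give DMSO no time, and its columns carry 24 h in their names, so effects of drug and of culture time cannot be told apart. Titles mark the BLU6864 libraries, and not the DMSO libraries, as a re-analysis, and this too cannot be told apart from the drug.

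FGFs are secreted ligands that, held by heparan sulphate chains on the cell surface, bring together pairs of FGF receptors. The receptors phosphorylate themselves and the membrane-anchored docking protein FRS2, which gathers GRB2 and the phosphatase SHP2 and so switches on RAS and ERK. The study asked whether FGF receptor signalling bears on ERK activity under RET inhibition. The question for these libraries is how much of each receptor and adaptor transcript TPC1 cells held, and which of them differed after the inhibitor.

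Among the 7 members with enough reads for the test, 3 were called lower with BLU6864, namely SHISA2, FRS2 and FGFR3, and 0 were called higher. Of all 12696 genes tested, 42.7% were called, 22.2% lower and 20.5% higher. SHISA2 fell 2.37-fold, FRS2 fell 1.43-fold and FGFR3 fell 1.40-fold. FGFR1, the receptor with most reads, did not pass the test, and neither did FGFR4, FGFRL1 or FRS3. FGFR2, KLB and FLRT3 had at most 10 reads in any library and were not tested.

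Total counts over the table ran from 23750509 to 28305571 reads per library. The thyroid transcription factor PAX8 was abundant, at 19124 to 29985 reads, while the thyroid genes TSHR and NKX2-1 had no read in any library. Some markers of other cell types were at or near 0, with no read of DCN, COL1A2, COL3A1 or CD3E and 2 reads of CDH5 in all, and others were not. The 11 thyroid markers summed to 1036 to 1093 CPM (counts scaled to a common library total) with DMSO and 822 to 879 CPM with BLU6864. Most of this sum came from PAX8. Of these markers 5 were tested, and 3 were called lower (PAX8, TG and FOXE1) and 1 higher. The higher one was DIO1, with 2 reads in each DMSO library and 26 and 28 with BLU6864. The 6 epithelial markers summed to 143 to 167 CPM with DMSO and 116 to 121 CPM with BLU6864. KRT18 was called lower and KRT7 higher, while EPCAM (2 to 11 reads) and CDH1 (0 to 8 reads) were near 0. The 4 endothelial markers in the table summed to 4.38 to 6.53 CPM with DMSO and 19.98 to 21.3 CPM with BLU6864, most of it from the receptor gene KDR (111 to 141 and 485 to 517 reads), and KDR and VWF were called higher. The 7 fibroblast markers summed to 14.7 to 16.3 CPM with DMSO and 23.7 to 24.5 CPM with BLU6864, and COL1A1 (144 to 169 and 218 to 237 reads) and PDGFRB (173 to 254 and 303 to 373 reads) were called higher. The 6 immune markers summed to 0.919 to 0.926 and 2.05 to 2.17 CPM, and CD14 (15 to 21 and 41 to 47 reads) was called higher. Their part in the results below was not tested. RET, the drug's target, did not pass the test (adjusted p = 0.767), at 1422 ± 50.3 normalized counts with BLU6864 and 1382 ± 102 with DMSO (SD, n = 2 per group). In bulk RNA, fewer cells of a type and less RNA per cell cannot be told apart.

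The stretches of genome before the start sites of the members that were lower are shown first, because ETS and AP-1 factors, which ERK signalling activates, act through short sites in promoters. Each sequence is the 250 bases before the annotated start of the gene, on the gene's own strand, from RefSeq on build GRCh38.p14. FGFR3 lies on the plus strand at chr4:1793043-1793292, FRS2 on the plus strand at chr12:69470138-69470387 and SHISA2 on the minus strand at chr13:26052017-26052266. Capitals mark a match to a searched motif.
FGFR3: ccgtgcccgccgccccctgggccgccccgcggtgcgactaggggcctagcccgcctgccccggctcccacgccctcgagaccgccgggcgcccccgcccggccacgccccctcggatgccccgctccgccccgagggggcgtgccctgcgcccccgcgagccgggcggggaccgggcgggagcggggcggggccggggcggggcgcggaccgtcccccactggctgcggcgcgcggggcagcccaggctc
FRS2: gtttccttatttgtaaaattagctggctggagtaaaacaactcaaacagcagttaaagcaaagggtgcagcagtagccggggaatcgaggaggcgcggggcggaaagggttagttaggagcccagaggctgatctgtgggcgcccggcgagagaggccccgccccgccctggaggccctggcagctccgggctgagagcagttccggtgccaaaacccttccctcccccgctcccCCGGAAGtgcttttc
SHISA2: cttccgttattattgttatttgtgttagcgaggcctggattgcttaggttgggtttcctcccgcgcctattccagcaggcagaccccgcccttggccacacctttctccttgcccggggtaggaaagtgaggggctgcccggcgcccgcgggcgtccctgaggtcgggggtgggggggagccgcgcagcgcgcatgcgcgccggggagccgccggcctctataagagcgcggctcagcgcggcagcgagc

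The motifs, none of which contains another, were searched on both strands, namely the ETS core CCGGAAG, the AP-1 site TGAGTCA, the cyclic AMP response element part TGACGTC and the FOXO site GTAAACA. The FRS2 window held 1 ETS core, on the gene's strand, with its last base 9 bases before the start. The FGFR3 and SHISA2 windows held none of the motifs as spelled. GC content was 86.8% for FGFR3, 67.6% for SHISA2 and 60.8% for FRS2. Windows were matched for 9 of the 10 members and FGFR1 was not matched. Among all 14 windows of these 9 genes, the ETS core occurred in that of FRS2 and the FOXO site in that of KLB, a gene with almost no reads. Of 35116 windows of this length in the genome, 8.52% held the ETS core, 4.2% the AP-1 site, 3.12% the CRE part and 2.98% the FOXO site. A match of letters is a description of the window and not evidence of binding.

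The 4 receptors with a kinase domain, FGFR1 to FGFR4, were represented very unequally. FGFR1 (ENSG00000077782, hg19 chromosome 8, 38268656 to 38326352) had 3619 and 2538 reads in DMSO replicates 1 and 2 and 2826 and 3094 reads in BLU6864 replicates 1 and 2. FGFR4 (ENSG00000160867, chromosome 5, 176513887 to 176525145) had 710 and 495 reads with DMSO and 564 and 626 with BLU6864. FGFR3 (ENSG00000068078, chromosome 4, 1795034 to 1810599) had 149 and 122 reads with DMSO and 90 and 104 with BLU6864. FGFR2 (ENSG00000066468, chromosome 10, 123237848 to 123357972) had 2 reads in each DMSO library and 2 and 5 with BLU6864. The order FGFR1, FGFR4, FGFR3, FGFR2 was therefore the same in all 4 libraries.

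FGFR1 took 80.8% of the reads of the 4 kinase receptors in DMSO replicate 1 (exact 95% Clopper-Pearson interval 79.6 to 81.9%) and 80.4% in DMSO replicate 2 (79.0 to 81.8%). With BLU6864 its share was 81.2% (79.8 to 82.4%) in replicate 1 and 80.8% (79.5 to 82.0%) in replicate 2. These intervals overlap in all libraries, and they cover counting error only. FGFR4 held 15.7 to 15.8% of the reads with DMSO and 16.2 to 16.3% with BLU6864. The FGFR3 share was 3.60% ± 0.38 with DMSO and 2.65% ± 0.09 with BLU6864 (SD, n = 2), and FGFR2 stood between 0.0446 and 0.131%. An exact permutation test of 2 against 2 libraries cannot give a p below 0.333, so the shares were not tested.

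Longer transcripts collect more reads, so the receptors were also compared per kilobase of their main transcript. On that scale FGFR1 made up 70.4% ± 0.26 of the 4 receptors with DMSO and 70.7% ± 0.30 with BLU6864, and FGFR4 made up 25.4% ± 0.20 and 26.2% ± 0.14. Dividing by the coding length instead left FGFR1 at 80.2% and 80.6%. FGFR1 was first and FGFR4 second in every library on all of these scales, and the share of FGFR4 changed with the length used.

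**Figure D1:**
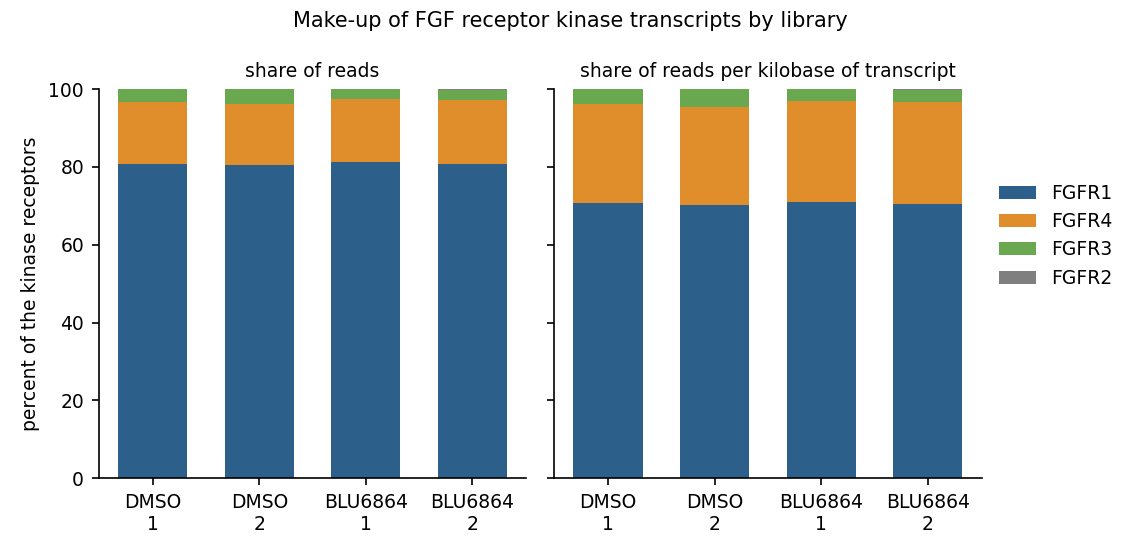
Make-up of the FGF receptor kinase transcripts in each library, as the percent of reads (left) and the percent of reads per kilobase of transcript (right). FGFR1 fills 80.4 to 81.2% of each bar on the left and about 70.4 to 70.7% on average on the right, FGFR4 is second, FGFR3 is a narrow band and FGFR2 is too small to see.

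FGFR1 normalized counts were 3312 and 2777 with DMSO and 2969 and 2898 with BLU6864. Both BLU6864 libraries lay between the DMSO libraries, so the groups overlapped. The log2 fold change of BLU6864 over DMSO was -0.05 ± 0.11 (SE, edgeR quasi-likelihood test, adjusted p = 0.74). Its 95% interval ran from a 0.829-fold to a 1.13-fold level. The interval reflects only these libraries, with counting error and a spread estimated partly from the other tested genes. The sign of the estimate was not stable, at 0.08 without DMSO replicate 1 and -0.18 without DMSO replicate 2, and neither passed (adjusted p = 0.546 and 0.088).

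FGFR4, the receptor that with KLB serves the hormone-like ligand FGF19 in liver, stood at 650 and 542 normalized counts with DMSO and 593 and 586 with BLU6864. Here too both treated libraries lay between the controls. Its log2 fold change was -0.01 ± 0.12 (adjusted p = 0.937), with a 95% interval of 0.836-fold to 1.17-fold. The FGFR1 and FGFR4 profiles were close to each other, since DMSO replicate 1 exceeded replicate 2 by 1.19-fold for FGFR1 and 1.20-fold for FGFR4. The ratio of FGFR1 to FGFR4 reads was 5.10 and 5.13 with DMSO and 5.01 and 4.94 with BLU6864. Among the 68 tested members and pathway genes, the profile nearest to FGFR1 over the 4 libraries was that of FGFR4 (root mean square difference of 0.02 log2 units), followed by GPC1, a heparan sulphate carrier (0.04). These profiles share the libraries, and 4 points describe likeness only.

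FGFR3 alone of the receptors was called. Its normalized counts were 136 and 133 with DMSO and 94.6 and 97.4 with BLU6864, so both treated libraries lay below both controls and each pair was tight. FGFR3 was lower by 28.6%, with a log2 fold change of -0.49 ± 0.18 (adjusted p = 0.0236) and a 95% interval of 0.558-fold to 0.914-fold. It rested on 90 to 149 reads per library. FGFR3 no longer passed when BLU6864 replicate 1 (adjusted p = 0.198) or replicate 2 (adjusted p = 0.174) was left out, or when the DESeq2 Wald test was used (adjusted p = 0.154). Adjusted p ran from 0.0173 to 0.198 over 11 alternatives. The estimate itself stayed between -0.51 and -0.43 in those 11 alternatives.

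FGFRL1 (ENSG00000127418, chromosome 4, 1003724 to 1020685) encodes a receptor that binds FGFs and lacks the kinase domain. It had 991 and 675 reads with DMSO and 671 and 724 with BLU6864. In normalized counts these were 907 and 739 against 705 and 678, so both treated libraries lay below both controls, while the controls were 1.23-fold apart. The log2 fold change was -0.25 ± 0.12, and the difference did not pass (adjusted p = 0.0876). Without DMSO replicate 2 it passed (-0.39, adjusted p = 0.00109), and without DMSO replicate 1 it was -0.10 with an adjusted p of 0.498. Counted with the 4 kinase receptors, FGFRL1 made up 17.9% ± 0.35 of the receptor reads with DMSO and 16.03% ± 0.18 with BLU6864. Per kilobase of transcript its share was 24.1% ± 0.44 with DMSO and 21.8% ± 0.25 with BLU6864. Per coding length it was 26.1% ± 0.46 and 23.7% ± 0.24. FGFR1 remained first of the 5 receptors per kilobase of transcript, at 53.4% with DMSO and 55.3% with BLU6864.

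KLB (ENSG00000134962, chromosome 4, 39408473 to 39453156), the coreceptor beta-klotho, was nearly silent. It had 3 and 4 reads with DMSO and 1 and 10 with BLU6864. Its summed level was 0.134 CPM with DMSO (exact 95% Poisson interval 0.0541 to 0.277) and 0.217 CPM with BLU6864 (0.108 to 0.388), and most of the treated reads came from replicate 2. FGFR2, summed in the same way, stood at 0.0768 CPM (0.0209 to 0.197) and 0.138 CPM (0.0555 to 0.284). The intervals overlap for both genes. They cover counting error only, and a difference was not tested. The klotho gene KL, coreceptor for FGF23, had no read in any library, where 3 reads over the DMSO pair would be 0.0576 CPM.

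**Figure D2:**
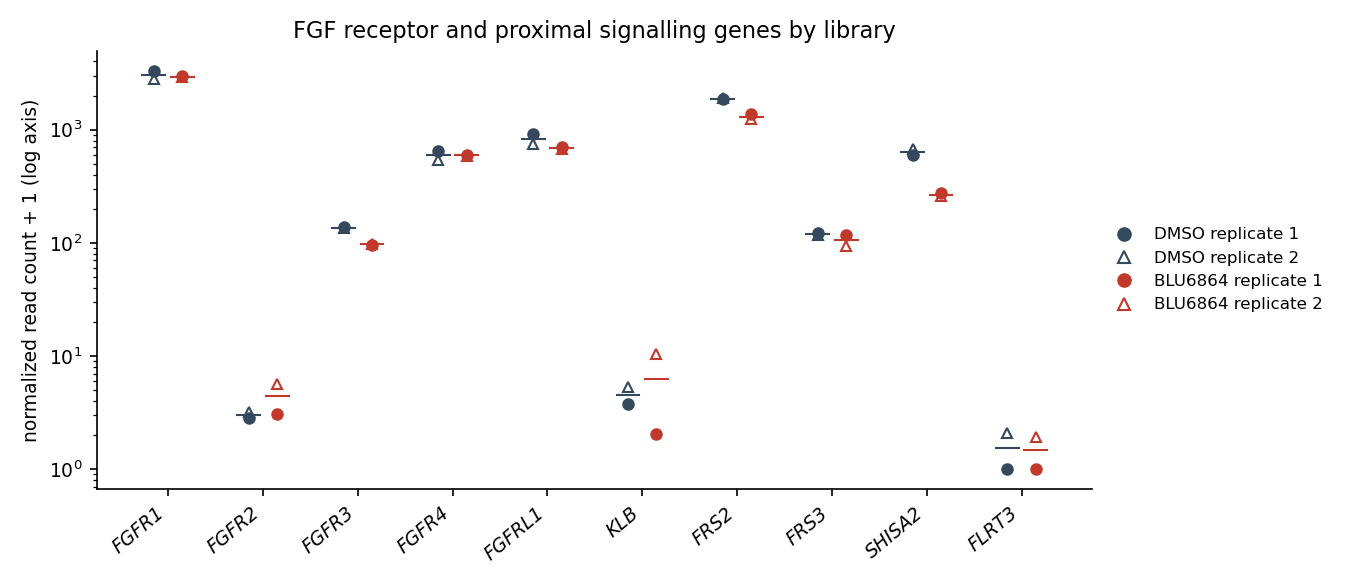
Normalized read count plus 1 (log axis) of each member in each library, with DMSO in dark blue and BLU6864 in red, replicate 1 filled and replicate 2 open, and a bar at the group mean. SHISA2, FRS2 and FGFR3 show both treated libraries clearly below both controls, and FGFR2, KLB and FLRT3 lie near the bottom with 0 to 10 reads.

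FRS2 (ENSG00000166225, chromosome 12, 69864129 to 69973562), the docking protein whose ETS core is shown above, had 2016 and 1730 reads with DMSO and 1304 and 1312 with BLU6864. The normalized counts were 1845 and 1893 with DMSO and 1370 and 1229 with BLU6864. The groups did not overlap, and the gap between them was larger than the spread of either pair. FRS2 fell by 0.52 on the log2 scale (SE 0.11, adjusted p = 1.2e-04), or by 30.3%, with a 95% interval of 0.600-fold to 0.810-fold. Without BLU6864 replicate 2 FRS2 did not pass (-0.45, adjusted p = 0.072), and it passed in the remaining 10 alternatives, where adjusted p ran from 2.7e-08 to 0.00672.

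FRS3 (ENSG00000137218, chromosome 6, 41737914 to 41754280), the second member of this adaptor family, had far fewer reads, 132 and 107 with DMSO and 111 and 100 with BLU6864. Its normalized counts were 121 and 117 with DMSO and 117 and 93.7 with BLU6864. BLU6864 replicate 1 lay just under the controls and replicate 2 lay further below. The difference did not pass (-0.18 ± 0.18, adjusted p = 0.443), with a 95% interval of 0.685-fold to 1.14-fold that includes the fold seen for FRS2. FRS3 overlaps PRICKLE4 over 6194 bases, and since the strand setting of the counting is not given in the sources used here, reads of both genes cannot be assigned with certainty. There were 15.3 and 16.2 FRS2 reads for each FRS3 read with DMSO and 11.7 and 13.1 with BLU6864. Per kilobase of transcript these ratios were 4.91 and 5.19 with DMSO and 3.77 and 4.21 with BLU6864. FRS2 was thus the main adaptor of the pair in all 4 libraries on both scales.

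SHISA2 (ENSG00000180730, chromosome 13, 26618735 to 26625169) showed the largest change of the members tested. Shisa proteins were described in frog embryos as holding immature FGF and WNT receptors in the endoplasmic reticulum, away from the cell surface. SHISA2 had 648 and 614 reads with DMSO and 263 and 273 with BLU6864. In normalized counts these were 593 and 672 against 276 and 256, so the groups were far apart relative to the spread within them. The log2 fold change was -1.24 ± 0.13 (adjusted p = 1.2e-10), with a 95% interval of 0.353-fold to 0.505-fold. SHISA2 passed in all 11 alternatives, with adjusted p up to 3.5e-07 and estimates from -1.34 to -1.16. The nearest profiles among the 68 genes were those of SDC4, a heparan sulphate carrier of the syndecan family (0.07 log2 units), and SPRED1, a feedback inhibitor of RAS signalling (0.09).

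FLRT3 (ENSG00000125848, chromosome 20, 14303634 to 14318262) encodes a membrane protein that binds FGF receptors and promotes FGF signalling in frog embryos. It had 1 read in DMSO replicate 2, 1 in BLU6864 replicate 2 and none in the other libraries. The exact Poisson upper bound was 0.107 CPM with DMSO and 0.110 CPM with BLU6864. FLRT3 lies wholly inside MACROD2, which had 883 to 1394 reads in the libraries where FLRT3 had 0 or 1.

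Both treated libraries lay below both controls for 5 of the 7 tested members, and above both for 0, where 35.7% and 35.1% of all tested genes did so. The other two, FGFR1 and FGFR4, overlapped. The median log2 fold change of the 7 was -0.25, and that of all tested genes was 0.01. With 7 genes these counts describe the members and do not set them apart from the other genes.

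**Figure D3:**
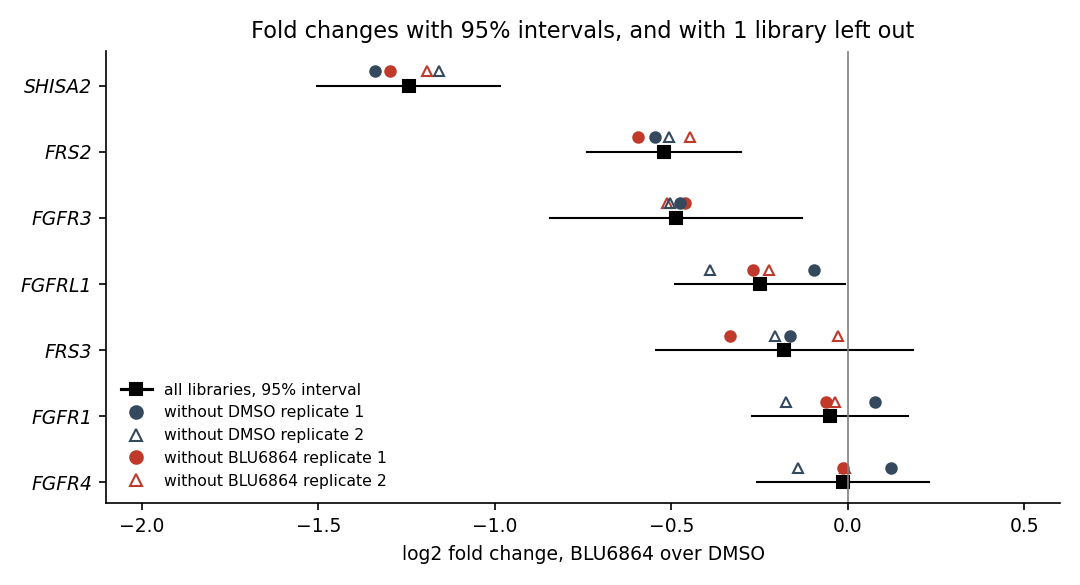
Log2 fold change of BLU6864 over DMSO for the 7 tested members, with squares for the fit on all libraries, bars for its 95% interval, and circles and triangles for the fits without 1 library. SHISA2 stays between -1.34 and -1.16, while FGFR1 moves between -0.18 and 0.08 and FGFR4 between -0.14 and 0.12 as the DMSO library changes.

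Levels of different genes were ordered by CPM per kilobase of transcript (RPKM). With DMSO the order was FGFR1 at 20.6 ± 2.61, FRS2 at 10.6 ± 0.17, FGFRL1 at 9.30 ± 1.37, FGFR4 at 7.42 ± 0.97 and SHISA2 at 6.34 ± 0.54. FRS3 at 2.11 ± 0.05 and FGFR3 at 1.21 ± 0.02 followed. FRS2 and FGFRL1, FGFRL1 and FGFR4, and FGFR4 and SHISA2 each differed by less than the sum of their SDs. FGFR1 stood apart at the top on this scale. These ranks depend on the length used, and the order per coding length was not computed. FRS2 has 1524 coding bases in a transcript of 6768, against 2466 in 5697 for FGFR1. Division by coding length would thus bring FRS2 much closer to FGFR1. It would also lift SHISA2 (885 coding bases of 3845) relative to FGFR4 (2406 of 3093). Within a library, FGFRL1 was above FGFR4 in all 4 libraries, at 10.3 against 8.11 and 8.33 against 6.74 RPKM with DMSO and 8.22 against 7.62 and 7.91 against 7.54 RPKM with BLU6864. FGFR4 and SHISA2 were nearly level in DMSO replicate 2, at 6.74 and 6.72 RPKM. With BLU6864 the values were 20.5 ± 0.35 for FGFR1, 8.07 ± 0.22 for FGFRL1, 7.64 ± 0.59 for FRS2 and 7.58 ± 0.06 for FGFR4. Here FGFRL1 and FRS2, and FRS2 and FGFR4, were closer than the sum of their SDs, and FRS2 was above FGFR4 in replicate 1 and below it in replicate 2. SHISA2 at 2.75 ± 0.15, FRS3 at 1.92 ± 0.30 and FGFR3 at 0.888 ± 0.02 came next. FGFR1 lay at the 81.2 percentile of the genes with a known length and FGFR3 at the 45.0 percentile, counting genes that are not expressed.

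The rest of the pathway was read from 5 lists. Their counts stand beside 22.2% lower and 20.5% higher among all tested genes. Among FGF family genes, listed as ligands, 8 of 22 had enough reads, and 5 were lower and 1 higher (median log2 fold change -0.91). The 8 include FGF11 to FGF14, which act inside the cell, and of these FGF12 and FGF14 were lower. Of the secreted ligands tested, FGF1, FGF5 and FGF9 were lower and FGF2 was higher. FGF5, a secreted ligand, had 4589 and 3884 reads with DMSO and 603 and 732 with BLU6864 (-2.67 ± 0.11). FGF14, which acts inside the cell on sodium channels rather than on receptors, fell from 59.3 ± 23.0 to 11.6 ± 4.44 normalized counts (-2.34 ± 0.36, adjusted p = 1.4e-06). FGF2, a ligand of FGFR1, had 1070 and 878 reads with DMSO and 1394 and 1361 with BLU6864. By reads, not adjusted for length, FGF5 led the list in both DMSO libraries and FGF2 in both BLU6864 libraries. FGF2 was the gene that rose (0.50 ± 0.11), and it did not pass when BLU6864 replicate 1 was left out (adjusted p = 0.0799).

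Of 26 genes for heparan sulphate, its carriers and other coreceptors, 17 were tested, with 3 lower, 4 higher and a median of 0.14. The syndecan SDC4 fell from 14497 ± 180 to 5778 ± 171 (-1.32 ± 0.12), and the syndecan SDC3 rose from 1998 ± 253 to 4735 ± 238 (1.25 ± 0.11). HSPG2, which encodes the matrix proteoglycan perlecan, rose from 2275 ± 160 to 3658 ± 568 (0.69 ± 0.11). As among all tested genes (22.2% lower and 20.5% higher), this list thus held changes in both directions. Its count of calls dropped from 7 to 4 without BLU6864 replicate 2, without DMSO replicate 1 and with the DESeq2 Wald test.

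All 20 adaptors and effectors downstream of FRS2 were tested, and 5 were lower and 4 higher (median -0.17). Of all tested genes, 22.2% were lower and 20.5% higher, so these counts do not set the list apart. PIK3R1, a regulatory subunit of PI3 kinase, had 1518 and 1270 reads with DMSO and 636 and 731 with BLU6864 (-1.03 ± 0.11). The adaptor NCK1 moved the other way, from 1503 and 1616 to 3082 and 3375 reads (1.03 ± 0.11). CBL, a ubiquitin ligase that marks active receptors for removal, fell by 0.65 on the log2 scale (SE 0.11). Without DMSO replicate 2 the number of calls in this list was 15.

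Of 12 FGF-responsive feedback and ETS genes, 11 were tested, and 10 were lower and 0 higher (median -1.79). SPRY2 (-3.29 ± 0.12), SPRY4 (-2.63 ± 0.12) and DUSP6 (-2.51 ± 0.12), all inhibitors of the ERK route, led the list. The exception, IL17RD, which acts on FGF receptors as an inhibitor and was picked out with its values in view, had 282 ± 27.2 with DMSO and 244 ± 6.78 with BLU6864 (-0.20 ± 0.14, adjusted p = 0.238). Sprouty and DUSP genes appear by name in the text of the study, so this count is no independent evidence of direction.

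Of 9 relatives of SHISA2 and FLRT3, 5 were tested. SHISA9 (0.79 ± 0.22) and SHISA5 (0.39 ± 0.12) were higher and SHISA3 (-0.51 ± 0.18) was lower, while SHISA4 (0.07 ± 0.11) and FLRT2 (-0.05 ± 0.20) did not pass. Without BLU6864 replicate 1 none of the 5 passed edgeR (adjusted p = 0.0527 for SHISA9, 0.103 for SHISA5 and 0.297 for SHISA3), and without BLU6864 replicate 2 SHISA9 alone did. With the DESeq2 Wald test SHISA5 alone passed. SHISA3 did not pass when DMSO replicate 1 was left out (adjusted p = 0.195), nor SHISA9 when DMSO replicate 2 was (adjusted p = 0.0536). With upper quartile factors SHISA3 just missed (adjusted p = 0.0505).

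**Figure D4:**
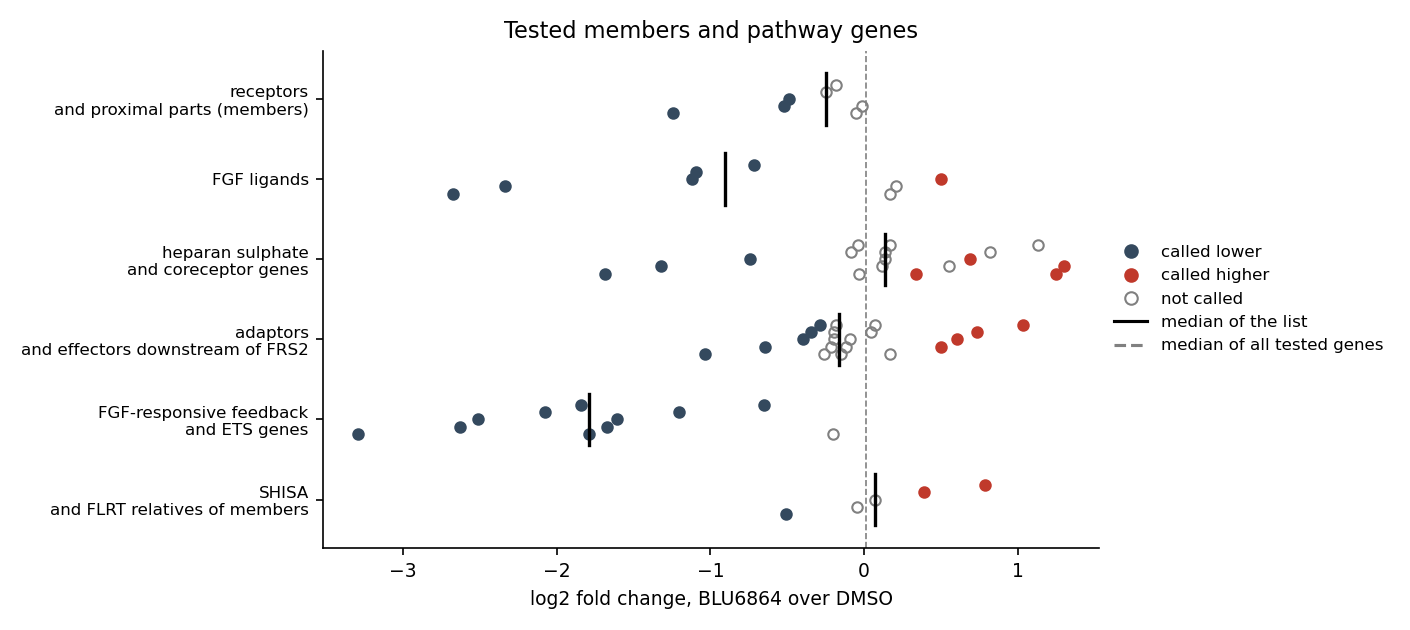
Log2 fold change of BLU6864 over DMSO for the tested members and the tested genes of each pathway list, with called genes filled (dark blue lower, red higher) and others open, a black bar at each list's median and a dashed line at the median of all tested genes (0.01). The feedback and ETS genes lie furthest to the left, with a median of -1.79, and the members have a median of -0.25.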

How the data were processed

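RNA was sequenced from 2 BLU6864 and 2 DMSO libraries as 50 bp single-end reads per the labels, while the study's methods describe paired-end sequencing. Nothing in the labels says that replicates came from separate cultures, so p-values rest only on the spread between these libraries. For each gene that spread was estimated partly from the other tested genes. The authors deposited raw counts per gene and, in the same table, a normalized signal in which the counts of a library are scaled by its DESeq2 size factor. The submitters' processing notes name STAR 2.3, hg19 and DESeq2. The counting tool, annotation and strand setting were not given in the sources used here. The table's fold changes, standard errors and p-values of the authors' own comparison were not used.

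The test, two-sided, was the robust quasi-likelihood F test of edgeR 4.0.16 (R 4.3.3), on counts kept by filterByExpr and scaled with TMM, with group as the only factor. P-values were Benjamini-Hochberg adjusted over 12696 genes, and values under 0.05 were called. The F statistic gave the SEs and 95% intervals. Means and SDs of groups are of the authors' normalized signal. Per-kilobase levels used the Ensembl canonical transcripts of GENCODE 44, matched by identifier for 95.5% of genes. Protein comparisons were not made. The scripts were tested on simulated data.

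The members and lists were chosen with earlier results of these data known. All members were named, with up to 3 called genes of smallest adjusted p from each list (filled up to 2 by level where fewer were called), and the 2 nearest profiles for FGFR1 and SHISA2. IL17RD, SHISA4, FLRT2, KL, the other tested FGF genes and the markers were named besides. Other size factors (DESeq2, upper quartile), other filters (no filter, at least 10 reads in every library), DESeq2 1.42.0, limma 3.58.1 on log2(normalized count + 1), the replicate number as a block and leaving out each library were tried as alternatives.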

Additional observations from a re-analysis of the deposited data

How the results depend on the processing

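Over 11 alternatives SHISA2 and FRS3 kept their direction and side of the threshold. Without 1 library, the number of members called ranged from 1 to 4, of all genes from 2764 to 6937 (1508 to 3626 lower, 1256 to 3311 higher), of heparan sulphate genes from 4 to 7, of adaptors and effectors from 6 to 15 and of SHISA and FLRT relatives from 0 to 2, and log2 fold changes ranged from -0.18 to 0.08 for FGFR1, -0.51 to -0.46 for FGFR3, -0.14 to 0.12 for FGFR4, -0.39 to -0.10 for FGFRL1, -0.60 to -0.45 for FRS2 and -0.34 to -0.03 for FRS3. FGFR1 changed sign without DMSO replicate 1 (0.0778), as did FGFR4 (0.121). With the DESeq2 Wald test FGFR3 did not pass (-0.49), 4 heparan sulphate genes and 1 SHISA or FLRT relative were called, and 2 members were called. FGFR1 changed sign with upper quartile factors (0.0044), as did FGFR4 (0.0409), which also did so with at least 10 reads in every library (0.00086). The causes were not tested. The FGFR1 share of kinase receptor reads was 80.6% and 80.2% (BLU6864 and DMSO) per coding length, and 70.7% and 70.4% per transcript length, an alternative chosen after seeing the data. With the replicate number as a block, 5970 genes and 3 members were called, against 5425 and 3 without it. The deviations of same-numbered libraries from their group means correlated at 0.142 over genes, with only 2 pairs, so the numbers were not taken to pair the libraries. Depth limits FGFR2, KLB and FLRT3, and the few reads of FGFR3 and FRS3 widen their intervals.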
